A study of Mus musculus with 9 samples.

Results

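Sustentacular cells are the supporting cells of the olfactory epithelium, and 6 genes that mark their identity were followed here: Krt8, Krt18, Ermn, Sox2, Hes1 and Notch2. They were taken by gene symbol from a table of 55291 genes, and enzymes that detoxify inhaled compounds were left out of the set by its rule. All 6 were measured in every mouse. Whole main olfactory epithelium was sequenced from 9 C57BL/6 mice of 8 to 12 weeks, 3 of each of 3 genotypes: wild-type littermates, Ms4a6c-/- mice lacking 1 gene of the Ms4a family by homologous recombination, and Ms4a cluster-/- mice from which the family, Ms4a6c included, had been deleted with CRISPR/Cas9. Ms4a genes encode membrane proteins. The study examined them in the sensory neurons of the necklace system, in cultured cells and, for Ms4a1, in sensory neurons outside the necklace. Each deletion was present in the germ line of the mouse, so it was carried by every cell of the tissue and not by supporting cells alone.

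A sustentacular cell spans the epithelium from its apical surface to its base, wraps the dendrites and cell bodies of sensory neurons, and is held in shape by filaments built of keratin 8 (Krt8) and keratin 18 (Krt18), which pair one to one. Sox2 is a transcription factor of progenitors and supporting cells. In the Notch pathway a ligand on a neighbouring cell, such as Jag1, releases the intracellular part of a receptor, such as Notch2, which acts with Rbpj in the nucleus on target genes such as Hes1, a repressor of neuronal fate. Ermn encodes ermin, an actin-binding protein with an ERM-like end that is also known from the myelin of oligodendrocytes. None of the 6 genes is limited to one cell type: Sox2 and Hes1 are also used by basal progenitors, Krt8 and Krt18 by gland and other simple epithelial cells, and Notch2 by vessel walls. In RNA of a whole tissue, fewer cells of a type and less RNA per cell cannot be told apart.

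The 9 libraries held 13954591 to 21987174 expected counts, so that 3 counts, the limit below which a gene was read as not detected, corresponded to 0.136 to 0.215 CPM (counts scaled to a common library size). The genotype labels were checked first. In wild-type mice Ms4a6c was read at 54.0, 90.3 and 81.5 counts, at 0 in each Ms4a cluster knockout, and at 0, 2.35 and 2 in the Ms4a6c knockouts. Other sustentacular genes were abundant in all libraries, with a summed 15836 to 20371 CPM over 8 genes, and so was Omp of mature sensory neurons, with a mean of 4847 CPM. A pair of libraries stood apart from the rest. In wild-type mouse 1 and Ms4a cluster knockout mouse 2, the summed level of 8 nasal gland secretory genes was 124894 and 128255 CPM, against 9095 to 15685 CPM in the other 7 libraries. Bpifb9a (53541 and 49857 CPM), Obp1a, Obp2a and Lcn11 had their group maxima there. The list did not rise as a whole. Bpifa1, at 7835 and 7254 CPM, was lowest of its groups in the same libraries. Lcn3, Lcn4 and Dmbt1 were highest in Ms4a cluster knockout mouse 3, at 284, 160 and 476 CPM. The scaling factors by the trimmed mean of M-values (TMM), which put libraries of different composition on one scale, were 0.702 and 0.704 in these 2 libraries and 1.07 to 1.13 in the other 7. All CPM values below are TMM-scaled unless stated, and these 2 libraries are called secretory-rich, after the summed level alone.

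**Figure D1:**
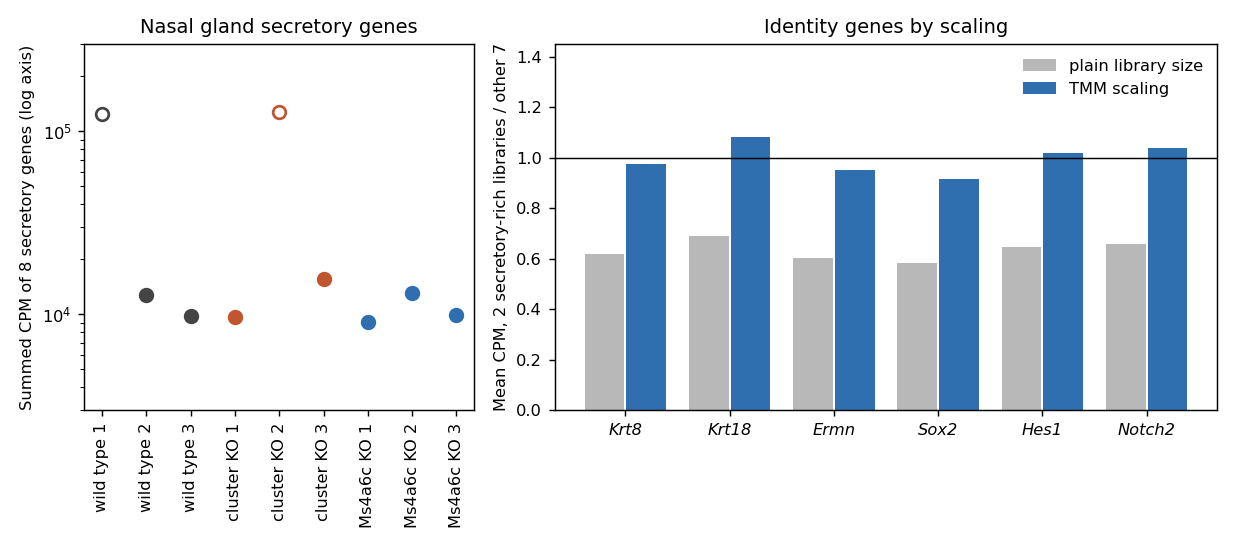
Left, summed TMM-scaled CPM of 8 nasal gland secretory genes in each of the 9 mice (log axis), with open circles for wild-type mouse 1 and Ms4a cluster knockout mouse 2, at 124894 and 128255 CPM. Right, the mean level of each identity gene in these 2 libraries divided by the mean of the other 7, as bars for plain library size (0.582 to 0.688) and for TMM scaling (0.916 to 1.08).

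With plain library sizes, each of the 6 genes read lower in the secretory-rich libraries, at 0.582 (Sox2) to 0.688 (Krt18) of the mean of the other 7. With TMM scaling the same ratios were 0.916 (Sox2) to 1.08 (Krt18). The summed level of the 6 genes then lay between 1011 and 1078 CPM in all 9 mice. The scaling thus set the apparent level of these genes in 2 of 9 mice.

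Per kilobase of the longest annotated transcript, the order of levels over the 9 mice was Krt18, Krt8, Sox2, Ermn, Hes1 and Notch2. Krt18 stood at 263 ± 12.0 CPM per kb (SD, n = 9) and Krt8 at 165 ± 5.57 CPM per kb. Sox2 followed at 38.1 ± 3.12 CPM per kb and Ermn at 35.3 ± 5.70 CPM per kb, and these neighbours in the order did not differ beyond their spread. Hes1 had 19.5 ± 2.0 CPM per kb and Notch2, the transcript of a large receptor, 9.18 ± 0.832 CPM per kb.

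On the genome (GRCm38, GENCODE M21 annotation) the pair of keratin genes are neighbours on chromosome 15. Krt8 lies on the minus strand at chr15:101996698-102004482 with 9 exons, and Krt18 on the plus strand at chr15:102028180-102032027 with 7 exons, 23697 bases apart. Ermn has 3 exons on the minus strand at chr2:58045113-58052864, and Sox2 a single exon on the plus strand at chr3:34650405-34652461. Hes1 has 4 exons on the plus strand at chr16:30064384-30067796, and Notch2 34 exons on the plus strand at chr3:98013527-98150361. The windows from 250 bases before to 50 after the RefSeq start (GRCm38.p6, 5′ to 3′ on the strand of the gene) are shown for the keratin pair, whose levels moved least, and for Ermn and Notch2, whose levels were lowest in Ms4a6c knockouts; 5 of the 6 genes had an entry. Capitals mark, on either strand, TGGGAA (the core letters read by the Notch effector RBPJ), ACAATG (a SOX core), TATAAA (letters read by the TATA-binding protein) and GGGCGG (a GC box). The windows lie at chr15:102004293-102004592 (minus strand) for Krt8, chr15:102027966-102028265 (plus) for Krt18, chr2:58052815-58053114 (minus) for Ermn and chr3:98013288-98013587 (plus) for Notch2.
Krt8: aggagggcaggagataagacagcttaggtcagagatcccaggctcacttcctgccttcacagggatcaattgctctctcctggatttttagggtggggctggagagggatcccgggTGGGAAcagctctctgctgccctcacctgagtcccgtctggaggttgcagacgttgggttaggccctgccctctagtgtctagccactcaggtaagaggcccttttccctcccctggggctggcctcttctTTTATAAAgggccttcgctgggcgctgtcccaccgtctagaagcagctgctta
Krt18: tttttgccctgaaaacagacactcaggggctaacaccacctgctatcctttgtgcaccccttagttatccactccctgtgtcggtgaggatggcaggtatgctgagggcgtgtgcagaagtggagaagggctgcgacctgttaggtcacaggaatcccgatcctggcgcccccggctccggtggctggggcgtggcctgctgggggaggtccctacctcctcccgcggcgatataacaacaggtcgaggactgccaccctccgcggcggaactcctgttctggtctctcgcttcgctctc
Ermn: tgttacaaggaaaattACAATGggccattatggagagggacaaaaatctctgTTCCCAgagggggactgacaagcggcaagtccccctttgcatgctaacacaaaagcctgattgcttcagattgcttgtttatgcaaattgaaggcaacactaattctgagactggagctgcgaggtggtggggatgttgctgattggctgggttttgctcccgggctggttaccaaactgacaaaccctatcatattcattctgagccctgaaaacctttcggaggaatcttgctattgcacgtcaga
Notch2: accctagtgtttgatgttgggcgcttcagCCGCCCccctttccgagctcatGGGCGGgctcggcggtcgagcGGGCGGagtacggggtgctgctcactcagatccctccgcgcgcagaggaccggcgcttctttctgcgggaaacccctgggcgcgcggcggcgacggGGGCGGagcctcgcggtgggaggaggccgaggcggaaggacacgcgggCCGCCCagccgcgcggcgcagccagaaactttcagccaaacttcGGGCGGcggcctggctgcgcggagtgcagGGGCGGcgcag
Searched on both strands, TGGGAA was present once in the Krt8 window and once in that of Ermn, and 25.6% of 32851 windows of all genes held it. ACAATG was present once in the Ermn window (12.6% of all windows). TATAAA was present in the Krt8 window on both strands in overlapping positions (13.6% of all windows). GGGCGG was present 7 times in the Notch2 window (35.7% of all windows held at least 1). The Krt18 window held none of these letters. A match is a description of the letters only, and nothing about binding was measured here.

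Krt8 and Krt18, the filament pair, were the steadiest of the 6 genes. Krt8 had 328, 327 and 306 CPM in the wild-type mice, 317, 304 and 328 CPM in the Ms4a cluster knockouts, and 328, 336 and 325 CPM in the Ms4a6c knockouts. The 3 genotypes overlapped. Their means were 320.5 ± 12.4, 316 ± 12.2 and 329.7 ± 5.44 CPM (SD, n = 3 each). Krt18 had 407, 375 and 349.6 CPM in wild-type mice, 374, 397 and 366 CPM in Ms4a cluster knockouts and 389.9, 376 and 369.6 CPM in Ms4a6c knockouts. The highest wild-type value and the highest Ms4a cluster value for Krt18 were those of the secretory-rich libraries, and again the genotypes overlapped. The means were 377 ± 28.7, 379 ± 16.1 and 378 ± 10.4 CPM (SD, n = 3 each). Over the 9 mice the coefficient of variation was 3.38% for Krt8 and 4.57% for Krt18, where the median of 10795 genes with a mean of at least 10 CPM was 8.11%. Of those genes, 2.88% varied less than Krt8 and 11.1% less than Krt18. This background was not matched for level: Krt8 was more abundant than 98.6% of all genes tested, Krt18 than 99.0% and Hes1 than 71.4%. How far abundance accounts for the small coefficients was not tested. The coefficients of Sox2 (8.18%), Notch2 (9.07%) and Hes1 (10.2%) were nearer that median, and Ermn varied most of the 6 (16.2%).

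**Figure D2:**
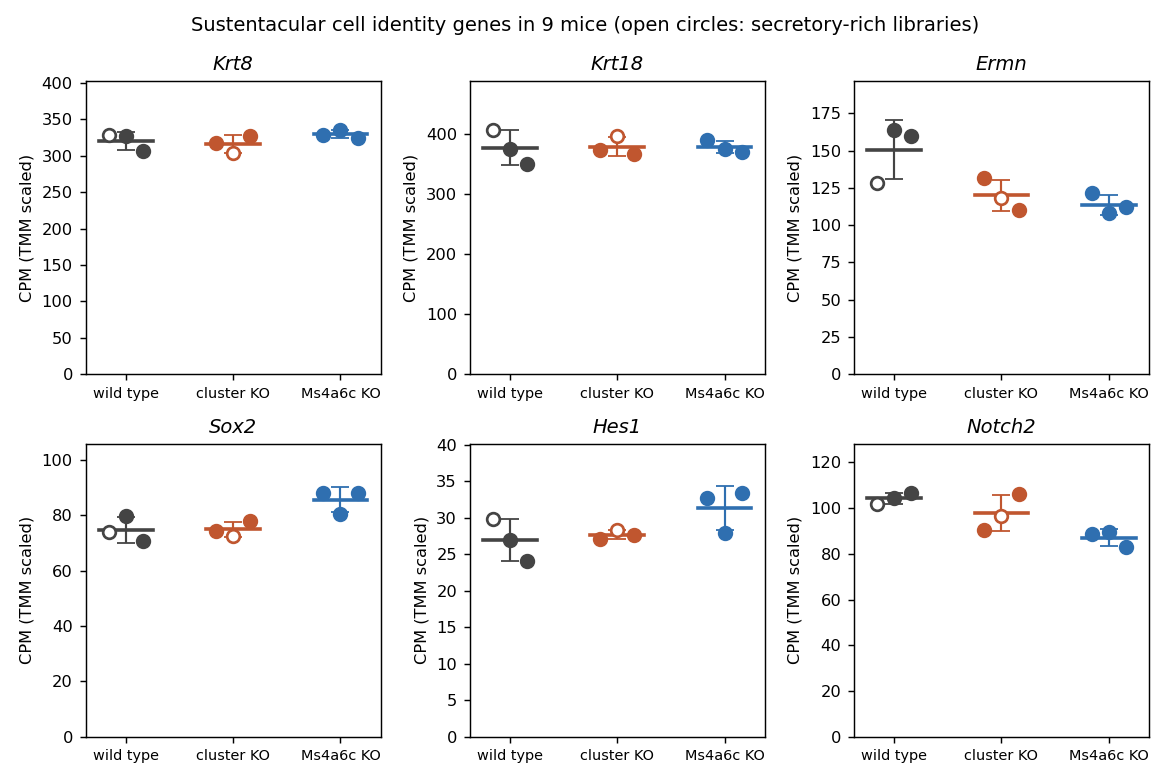
TMM-scaled CPM of the 6 identity genes by genotype, 1 point per mouse, with the mean (bar) and SD (whiskers) of 3 mice and open circles for the secretory-rich libraries; each axis starts at 0. Krt8 and Krt18 sit at similar levels in the 3 genotypes, Ermn and Notch2 are lower in every Ms4a6c knockout than in every wild-type mouse, and Sox2 is higher.

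The ratio of Krt8 to Krt18 counts within a library does not depend on the scaling. It was 0.842 to 0.896 in the 7 other libraries, and 0.806 and 0.765 in the secretory-rich wild-type mouse 1 and Ms4a cluster knockout mouse 2. Both low ratios belonged to the libraries with a high summed level of secretory genes, and the part of the gland genes in the ratio was not tested. A processed pseudogene, Krt8-ps, is 98.6% identical to Krt8 over 941 bases and drew 14.7 to 37.7 counts per library, while a Krt18 copy, Gm5200 (90.5% over 1267 bases), drew 0. Adding the copies to their parents left the log2 difference of Krt8 between Ms4a6c knockout and wild-type mice at 0.04.

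To ask whether loss of the Ms4a family altered these genes, a model of the 3 genotypes was fitted over all 23225 genes with at least 10 counts (edgeR quasi-likelihood test, p-values adjusted by Benjamini-Hochberg over all of them). In Ms4a cluster knockouts against wild-type mice, 0 of 6 identity genes passed an adjusted p under 0.05, and 0.0258% of all genes tested did. At an unadjusted p under 0.05 there was 1 of 6, Ermn, against 4.93% of all genes. DESeq2, run as an alternative, called 0 of 6 and 18 of all 23225 genes. The median log2 difference of the 6 genes was -0.01, as against 0.01 over all genes. In Ms4a6c knockouts against wild-type mice, 0 of 6 passed the adjusted threshold and 0.435% of all genes did. Here 4 of 6 had an unadjusted p under 0.05, with Sox2 and Hes1 higher and Ermn and Notch2 lower, against 10.5% of all genes (5.35% higher and 5.12% lower). DESeq2 called 2 of 6 in this comparison and 345 of all 23225 genes. The median of the 6 was 0.02 with the genes on both sides of 0, and the median over all genes was 0.00. Between the 2 knockouts, 0 of 6 passed, where 0.443% of all genes did. Sox2 and Notch2 had an unadjusted p under 0.05 (2 of 6, 1 lower and 1 higher in Ms4a cluster knockouts, against 9.37% of all genes, 4.7% lower and 4.68% higher). DESeq2 called 0 of 6 between the knockouts and 271 of all 23225 genes. The 3 comparisons share mice, so they are not separate lines of evidence.

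**Figure D3:**
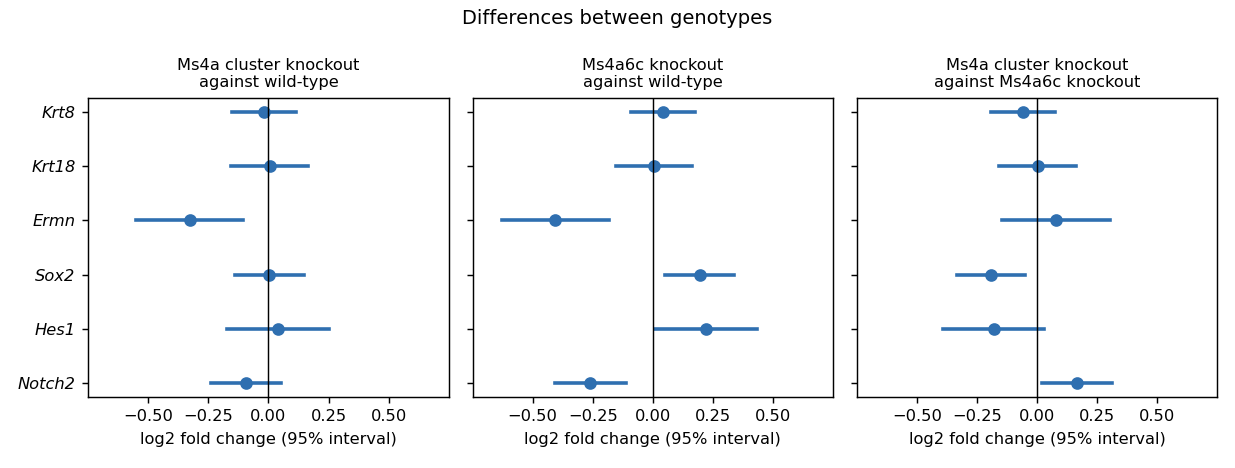
Log2 fold change of each identity gene (point) with its 95% interval (line) from the edgeR fit, for Ms4a cluster knockout against wild-type (left), Ms4a6c knockout against wild-type (middle) and Ms4a cluster knockout against Ms4a6c knockout (right). Intervals of Krt8 and Krt18 span 0 in each panel, those of Ermn lie below 0 in both comparisons with wild type, and no gene passed the adjusted threshold.

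The log2 difference of Krt8 was -0.02 (95% interval -0.15 to 0.11) in Ms4a cluster knockouts and 0.04 (-0.09 to 0.17) in Ms4a6c knockouts against wild-type mice. For Krt18 the values were 0.01 (-0.15 to 0.17) and 0.00 (-0.16 to 0.16). With TMM scaling, changes of Krt8 beyond 1.13-fold upward or below 0.900-fold lay outside both intervals. With plain library sizes the intervals were wider, and the bound did not hold: Krt8 read -0.000288 (-0.58 to 0.58) in Ms4a cluster knockouts and 0.23 (-0.35 to 0.81) in Ms4a6c knockouts against wild-type mice, and Krt18 read 0.02 (-0.55 to 0.59) and 0.20 (-0.37 to 0.77). Under that scaling the median over all genes in Ms4a6c knockouts was itself at 0.18.

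Ermn, which encodes the actin-binding protein ermin, differed most between genotypes. It had 128, 164 and 160.1 CPM in wild-type mice, 131, 118 and 110.5 CPM in Ms4a cluster knockouts, and 121, 108 and 112 CPM in Ms4a6c knockouts. Each Ms4a6c knockout was below each wild-type mouse, and the Ms4a cluster knockouts overlapped with wild type only through the secretory-rich wild-type mouse 1. Means were 151 ± 19.7, 120.1 ± 10.5 and 114 ± 6.80 CPM (SD, n = 3 each). Against wild-type mice the log2 difference was -0.33 (SE 0.10, edgeR adjusted p = 0.968) in Ms4a cluster knockouts and -0.41 (SE 0.10, 95% interval -0.63 to -0.18, edgeR adjusted p = 0.164) in Ms4a6c knockouts. Between the knockouts it was 0.08 (-0.15 to 0.30).

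Whether Ermn passed the threshold in Ms4a6c knockouts depended on wild-type mouse 1, on the tool and on the scaling. Without wild-type mouse 1 the log2 difference was -0.51 with an edgeR adjusted p = 0.0277, and without both secretory-rich libraries -0.51 with 0.0214. DESeq2 gave -0.41 with an adjusted p = 0.0113, and with plain library sizes edgeR gave -0.25 with 0.952, where the median over all genes moved to 0.18. In Ms4a cluster knockouts plain library sizes gave -0.35 (95% interval -0.95 to 0.25). With the level of Xist as a covariate the Ermn difference in Ms4a6c knockouts was -0.33 (SE 0.06, edgeR adjusted p = 0.0924). That in Ms4a cluster knockouts was -0.33 (SE 0.06), and that between the knockouts 0.00055. Sex was not among the sample labels used here, and its part in the Ermn values was not tested. Since ermin is also a myelin protein, oligodendrocyte genes were read alongside. Of 7 such genes, Opalin had at most 1 count in any mouse, Mog at most 7, and Mbp led with a mean of 41.0 CPM. Their sum was 68.6 to 116 CPM in wild-type mice, 72.9 to 98.0 in Ms4a cluster knockouts and 67.3 to 71.7 in Ms4a6c knockouts, and its part in the Ermn values was not tested. Galnt5, a protein-coding gene on the opposite strand, overlaps the 3′ end of Ermn and drew 301 to 687 counts per library. The library kit kept strand, but the strand setting of the counting is not given in the sources used here.

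Sox2, the progenitor and supporting cell transcription factor, had 73.8, 79.8 and 70.6 CPM in wild-type mice and 74.4, 72.5 and 77.8 CPM in Ms4a cluster knockouts. In Ms4a6c knockouts it had 88.2, 80.4 and 88.1 CPM, each above every other mouse, with the lowest of them next to wild-type mouse 2. The means were 74.8 ± 4.65, 74.9 ± 2.69 and 85.6 ± 4.49 CPM (SD, n = 3 each). The log2 difference was 0.00 (95% interval -0.14 to 0.15) in Ms4a cluster knockouts and 0.19 (0.05 to 0.34, edgeR adjusted p = 0.299) in Ms4a6c knockouts against wild-type mice. It was -0.19 (-0.34 to -0.05, edgeR adjusted p = 0.371) in Ms4a cluster against Ms4a6c knockouts. With plain library sizes the differences read 0.38 and -0.36, where the median over all genes was at 0.18 and -0.17. Sox2 lies inside the long noncoding gene Sox2ot on the same strand, which had only 12 to 40 counts per library.

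Notch2, the receptor, had 102, 104 and 107 CPM in wild-type mice, 90.6, 96.4 and 106 CPM in Ms4a cluster knockouts, and 88.7, 89.6 and 83.0 CPM in Ms4a6c knockouts. Every Ms4a6c knockout was below every mouse of both other genotypes. The means were 104 ± 2.49, 97.7 ± 7.82 and 87.1 ± 3.57 CPM (SD, n = 3 each). The log2 difference in Ms4a6c knockouts against wild-type mice was -0.26 (SE 0.07, 95% interval -0.41 to -0.11, edgeR adjusted p = 0.177), and DESeq2 gave the same size with an adjusted p = 0.0451. With plain library sizes it was -0.08 (adjusted p = 0.959, the highest over the alternatives). In Ms4a cluster knockouts it was -0.09 (-0.24 to 0.05), and between the knockouts 0.17 (0.02 to 0.31, edgeR adjusted p = 0.472).

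Hes1, the repressor downstream of Notch, had 29.8, 27.0 and 24.1 CPM in wild-type mice, 27.1, 28.3 and 27.7 CPM in Ms4a cluster knockouts, and 32.7, 27.9 and 33.4 CPM in Ms4a6c knockouts. Ms4a6c knockout mouse 2 lay among the wild-type values and the other two above them. The log2 difference was 0.22 (SE 0.09, 95% interval 0.01 to 0.43, edgeR adjusted p = 0.453) in Ms4a6c knockouts and 0.04 (-0.17 to 0.25) in Ms4a cluster knockouts. With plain library sizes the former read 0.43. The receptor and the target gene thus had point estimates of opposite sign in Ms4a6c knockouts, with neither past the threshold.

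Counting groups that did not overlap, Sox2 was higher and Ermn and Notch2 lower in all Ms4a6c knockouts than in all wild-type mice, 3 of 6, where 18.3% of all genes did not overlap (9.71% higher and 8.55% lower). In Ms4a cluster knockouts against wild-type mice there were 0 of 6, against 9.86% of all genes. Between the knockouts there were 2 of 6, Notch2 higher and Sox2 lower in Ms4a cluster knockouts, against 16% of all genes (7.86% higher and 8.09% lower).

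The rest of the Notch pathway was read from lists of 43 genes, all of which were tested. In Ms4a cluster knockouts against wild-type mice 0 of 43 passed the adjusted threshold, 0 had an unadjusted p under 0.05 (4.93% of all genes), and the median log2 difference was -0.02. In Ms4a6c knockouts against wild-type mice 0 of 43 passed, and the median was 0.02. At an unadjusted p under 0.05, 4 were higher and 3 lower, against 10.5% of all genes (5.35% higher and 5.12% lower). DESeq2 called Hey2 there, in a fit that called 345 of all 23225 genes. Between the knockouts 0 of 43 passed, with a median of -0.05. At an unadjusted p under 0.05, 2 were higher and 4 lower, against 9.37% of all genes (4.68% higher and 4.7% lower).

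Among ligands and receptors, Jag2 was the most abundant beside Notch2, with a mean of 80.6 CPM over the 9 mice, and its log2 difference was -0.07 (SE 0.11) in Ms4a cluster and 0.13 (SE 0.11) in Ms4a6c knockouts against wild-type mice. The ligand Jag1 stood at 45.3 ± 4.03 CPM in Ms4a cluster and 56.4 ± 10.4 CPM in Ms4a6c knockouts (SD, n = 3 each), the smallest p of that list between the knockouts (log2 -0.32, SE 0.12). Dlk1, a noncanonical ligand, had the smallest p of the list against wild type at a mean of only 0.313 CPM. Of the genes that process or modify the receptor, Psen2, a catalytic subunit of gamma-secretase, was the most abundant at 128 CPM. The ubiquitin ligase Itch had 84.6 ± 0.934 CPM in wild-type mice and 75.5 ± 0.892 CPM in Ms4a6c knockouts (log2 -0.17, SE 0.05). Rfng, a fringe glycosyltransferase that tunes ligand choice, had 27.4 ± 3.04 CPM in Ms4a cluster and 35.1 ± 0.694 CPM in Ms4a6c knockouts (log2 -0.35, SE 0.09), and Lfng of the same family 10.5 ± 0.570 CPM in Ms4a cluster knockouts and 9.55 ± 0.0983 CPM in wild-type mice. None of these passed the adjusted threshold.

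**Figure D4:**
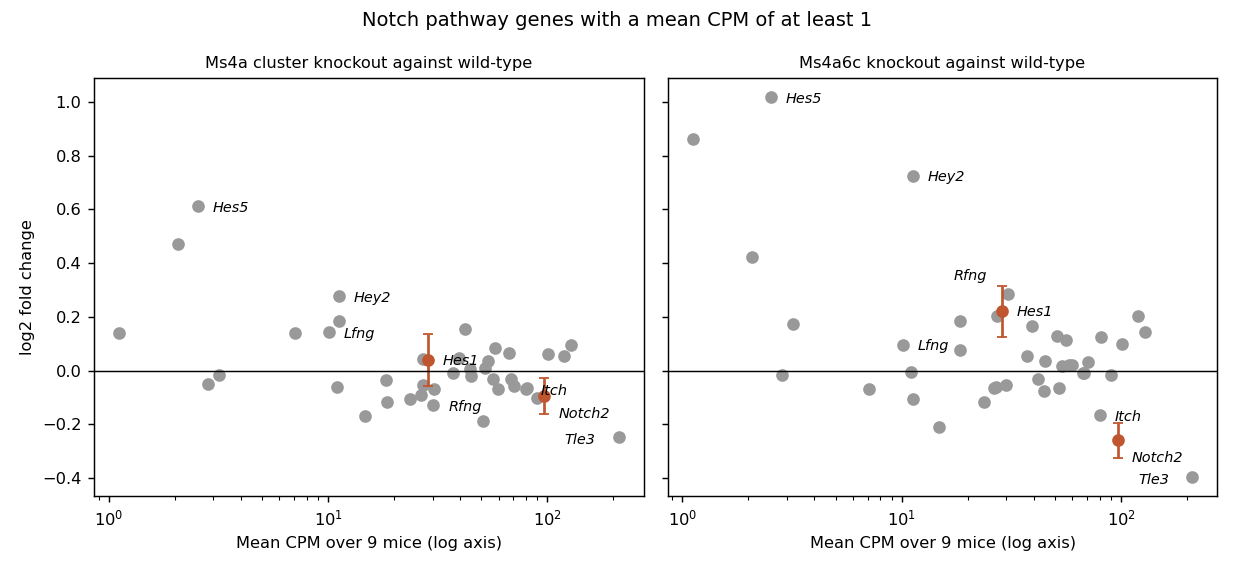
Log2 fold change against wild type (vertical) by mean CPM over the 9 mice (horizontal, log axis) for Notch pathway genes with a mean of at least 1 CPM, in Ms4a cluster knockouts (left) and Ms4a6c knockouts (right). Notch2 and Hes1 are drawn in colour with their SE; in Ms4a6c knockouts Hes1 lies at 0.22, Notch2 at -0.26 and Hey2 at 0.73, and none passed the adjusted threshold in the edgeR fit.

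Among nuclear partners and targets, the target Hey2 had 8.71 ± 1.34 CPM in wild-type mice and 14.4 ± 1.34 CPM in Ms4a6c knockouts (SD, n = 3 each), with a log2 difference of 0.73 (SE 0.17, edgeR adjusted p = 0.145). DESeq2 called it with an adjusted p = 0.0185. The target Hes5, at a mean of 2.55 CPM, had 1.66 ± 0.145 CPM in wild-type mice 2.61 ± 1.15 CPM in Ms4a cluster knockouts and 3.37 ± 0.679 CPM in Ms4a6c knockouts (SD, n = 3 each). The log2 difference of Hes5 against wild-type mice was 0.61 (SE 0.31, edgeR adjusted p = 0.968) in Ms4a cluster and 1.02 (SE 0.31, edgeR adjusted p = 0.260) in Ms4a6c knockouts. The target Hey1, named after its values were seen, had 112 ± 7.02 CPM in wild-type mice and 129 ± 9.87 CPM in Ms4a6c knockouts (log2 0.20, SE 0.07, edgeR adjusted p = 0.362). The list did not rise as a whole. In the same comparison Heyl was at 0.08 (SE 0.10), Id1 at 0.02 (SE 0.09) and Hes6 at -0.03 (SE 0.08). Hes7, at a mean of only 0.149 CPM, was at -2.80 (SE 1.28). The median of the 16 genes besides Hes1 was 0.01, with 3 higher and 1 lower at an unadjusted p under 0.05. The feedback inhibitor Nrarp had 16.8 ± 2.27 CPM in Ms4a cluster and 20.6 ± 0.966 CPM in Ms4a6c knockouts (log2 -0.30, SE 0.10). The corepressor Tle3, the most abundant of the list, had 244 ± 24.5 CPM in wild-type mice and 185 ± 51.0 CPM in Ms4a6c knockouts (log2 -0.40, SE 0.17), with a spread in the knockouts that covered most of the difference.

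Genes that share a structure or a role with the other members were counted in 5 further lists. Together with the Notch lists these held 97 tested genes besides the 6, of which 0 passed the adjusted threshold in each of the 3 comparisons. At an unadjusted p under 0.05 there were 2 in Ms4a cluster and 13 in Ms4a6c knockouts against wild-type mice, and 12 between the knockouts. These are 2.06%, 13.4% and 12.4% of the 97 genes, against 4.93%, 10.5% and 9.37% of all genes. DESeq2 called 0, 5 and 4 of the 97, against 18, 345 and 271 of all 23225 genes.

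Other sustentacular genes (8 tested) had a median log2 difference of -0.01 in Ms4a cluster and 0.24 in Ms4a6c knockouts against wild-type mice, where the median over all genes was 0.01 and 0.00. In the latter comparison 3 of 8 were higher at an unadjusted p under 0.05 and 0 lower, against 5.35% and 5.12% of all genes. DESeq2 called 0 of 8 in Ms4a cluster and 3 of 8 in Ms4a6c knockouts against wild-type mice, and 4 of 8 between the knockouts. Over all 23225 genes it called 18, 345 and 271 in the same comparisons. Ugt2a1, a glucuronosyltransferase and the most abundant, had 5683 ± 176 CPM in wild-type mice, 5336 ± 201 CPM in Ms4a cluster and 6101 ± 108 CPM in Ms4a6c knockouts. The surface protease Tmprss2 had 76.4 ± 4.11 CPM in wild-type mice and 92.5 ± 5.38 CPM in Ms4a6c knockouts (log2 0.28, SE 0.06). It was among the 3 called by DESeq2 (adjusted p = 0.0212), with Sec14l3 (log2 0.21, adjusted p = 0.0220) and Cyp2g1, a cytochrome P450 enzyme (log2 0.31, adjusted p = 1.37e-05). The sulfotransferase Sult1c1 had 551 ± 167 CPM in Ms4a cluster and 871 ± 49.5 CPM in Ms4a6c knockouts (log2 -0.66, SE 0.19). DESeq2 called it between the knockouts (adjusted p = 0.0103), with Ugt2a1 (0.00556), Sec14l3 (0.0365) and Cyp2g1 (1.23e-06), each lower in Ms4a cluster knockouts. The summed level of the 8 genes, 16384 to 17919 CPM in wild-type mice, 15836 to 17706 in Ms4a cluster knockouts and 19602 to 20371 in Ms4a6c knockouts, stood highest in the Ms4a6c knockouts, without overlap. The means of Sox2 and Hes1 were also highest there, and those of Ermn and Notch2 lowest.

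Keratins and their linkers (13 tested besides Krt8 and Krt18) had medians of -0.03 and 0.02 in Ms4a cluster and Ms4a6c knockouts against wild-type mice, with 0 genes at an unadjusted p under 0.05 in all 3 comparisons. The junction protein Jup, the most abundant, had 157 ± 0.999, 167 ± 16.4 and 166 ± 5.76 CPM in wild-type, Ms4a cluster and Ms4a6c mice. The linkers Evpl and Plec and the basal keratin Krt5 had the smallest p of the list, with log2 differences of -0.25 (SE 0.17), -0.13 (SE 0.08) and -0.14 (SE 0.09) in their comparisons. Partners of ezrin and ermin-like proteins (8 tested besides Ermn) had medians of -0.03 and -0.03. Ezr itself, the membrane-to-actin linker, had 255 ± 14.8, 256 ± 15.0 and 261 ± 6.30 CPM in the same order of genotypes, which differed by less than the spread between mice. Slc9a3r1, a scaffold bound by ezrin, and Epb41l3, a membrane skeleton protein, had the smallest p of that list, with log2 differences of 0.13 (SE 0.06) in Ms4a6c and -0.14 (SE 0.11) in Ms4a cluster knockouts against wild-type mice.

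Partners of Sox2 in placode and progenitor programmes (12 tested besides Sox2) had medians of 0.06 and 0.09 in Ms4a cluster and Ms4a6c knockouts. Eya1, a transcriptional cofactor and the most abundant, had 112 ± 2.83, 115 ± 13.1 and 125 ± 5.06 CPM in wild-type, Ms4a cluster and Ms4a6c mice. Fezf1, a transcription factor of the olfactory epithelium, had 53.1 ± 1.98 CPM in wild-type mice and 69.1 ± 4.22 CPM in Ms4a6c knockouts (log2 0.38, SE 0.13). It passed the threshold without the secretory-rich libraries (log2 0.39, edgeR adjusted p = 0.0288). Eya2, a relative of Eya1, had 35.0 ± 3.04 CPM in Ms4a cluster and 30.0 ± 1.31 CPM in Ms4a6c knockouts, and Sox1, a relative of Sox2, averaged only 0.191 CPM.

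Genes of epithelial junctions and polarity (13 tested) had medians of -0.02 and 0.03. The adhesion protein Epcam was level in the 3 genotypes, at 251 ± 9.82, 252 ± 5.25 and 256 ± 4.34 CPM. Cldn4, a tight junction claudin, had 12.7 ± 1.82 CPM in wild-type mice and 17.8 ± 1.11 CPM in Ms4a6c knockouts (log2 0.49, SE 0.11). It passed without the secretory-rich libraries (log2 0.61, edgeR adjusted p = 0.0214) and with DESeq2 (0.0267). Occludin (Ocln) had 21.1 ± 0.262 CPM in wild-type mice and 18.9 ± 0.547 CPM in Ms4a cluster knockouts, and E-cadherin (Cdh1) 230.1 ± 15.6 CPM in Ms4a cluster and 261 ± 10.7 CPM in Ms4a6c knockouts.

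Of 83 tested markers of 12 other cell type lists, 1 passed the threshold in Ms4a6c knockouts against wild-type mice and in the comparison of the knockouts, and 0 in Ms4a cluster knockouts against wild-type mice (6 at an unadjusted p under 0.05, which is 7.23% against 4.93% of all genes, and 0 by DESeq2). That gene was Coch, an extracellular matrix gene on the list of microvillous cells, at 432 ± 34.2 CPM in wild-type mice, 463 ± 33.0 CPM in Ms4a cluster and 286 ± 15.6 CPM in Ms4a6c knockouts. It fell in Ms4a6c knockouts by 0.59 on the log2 scale (SE 0.08, edgeR adjusted p = 0.0122). That call was lost in 6 of 19 alternatives, among them the fits without wild-type mouse 2 (adjusted p = 0.0722) or 3 (0.0699) and without Ms4a6c knockout mouse 2 (0.0766) or 3 (0.0844), the replicate block (0.0693) and plain library sizes (0.952); DESeq2 gave 5.45e-11. The list's sum was 482 to 567 CPM in wild-type mice and 379 to 409 CPM in Ms4a6c knockouts. The other 7 genes of the list did not share the fall of Coch: their sum was 88.8 to 110 CPM in wild-type mice, 93.2 to 112 CPM in Ms4a cluster and 104 to 106 CPM in Ms4a6c knockouts. Summed levels of ensheathing glia genes were 788 to 865 CPM in wild-type mice, 932 to 1143 in Ms4a cluster and 986 to 1079 in Ms4a6c knockouts, and those of endothelial and mural genes 972 to 1013, 816 to 957 and 906 to 944 CPM. Most of each sum was 1 gene. In the same order of genotypes, Apoe of the glial list averaged 590, 735 and 767 CPM, and Rgs5 of the vessel list 753, 661 and 722 CPM. Vessel cells also use Notch2, and their part was likewise not tested. Sums of globose basal genes, which mark cells that also use Sox2 and Hes1, overlapped between genotypes at 94.5 to 134, 108 to 131 and 111 to 117 CPM. Horizontal basal genes did so at 123 to 145, 123 to 134 and 127 to 144 CPM. Each listed gene had at least 1 count in some library, and Lcn14 was not analysed here.

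Whether the identity genes followed one another from mouse to mouse was examined over 15 pairs (log2 of CPM + 1, n = 9 mice, exact permutation over pairings). No pair passed after adjustment over the 15. The highest coefficient was that of Sox2 and Hes1, with Pearson r = 0.80 (exact permutation p = 0.0110, adjusted 0.165) and Spearman rho = 0.53 (exact permutation p = 0.148, adjusted 0.443). It rested on Ms4a6c knockout mice 1 and 3, without which r was 0.32. Centred on the genotype means, r was 0.57. Not centred, and without the secretory-rich libraries, it was 0.96. Hes1 and Notch2 had r = -0.71 (exact permutation p = 0.0306, adjusted 0.229), rho = -0.77 (exact permutation p = 0.0214, adjusted 0.276) and r = -0.33 without the same pair of mice. Centred on genotype it was -0.34.

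Krt8 and Krt18, although partners in 1 filament, had r = 0.17 (exact permutation p = 0.663, adjusted 0.712) and rho = 0.32 (exact permutation p = 0.410, adjusted 0.504), and r = 0.17 again without the 2 mice farthest from the median of Krt8. Within genotypes the centred r was 0.20. Not centred, r was 0.73 without the secretory-rich libraries and turned to -0.29 without wild-type mouse 3. With plain library sizes r was 0.99, with all 6 genes lower in the secretory-rich libraries under that scaling.

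**Figure D5:**
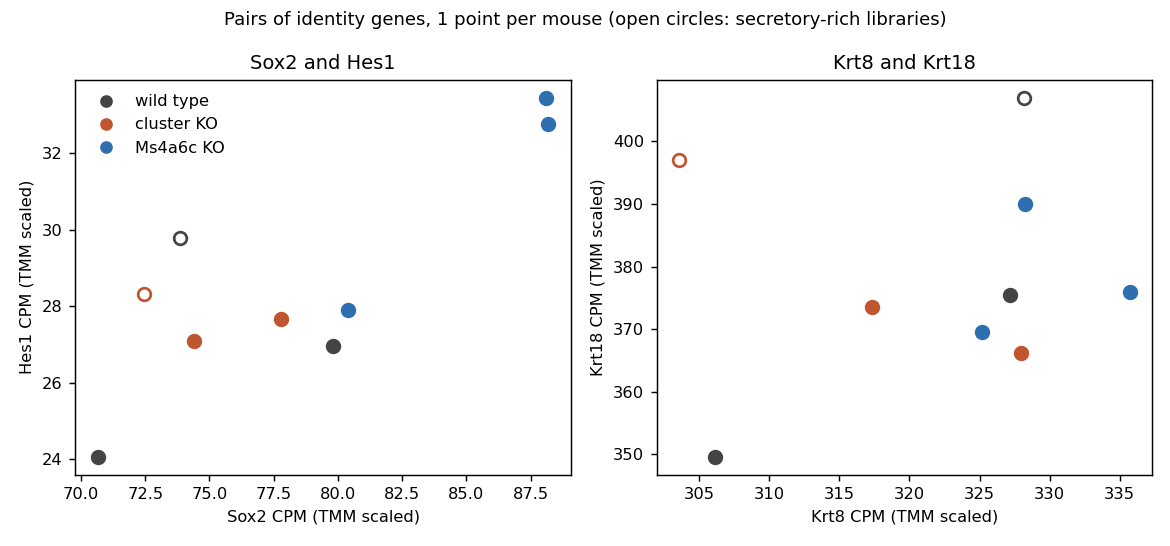
TMM-scaled CPM of Hes1 against Sox2 (left, r = 0.80) and of Krt18 against Krt8 (right, r = 0.17), 1 point per mouse coloured by genotype, with open circles for the secretory-rich libraries. In the left plot Ms4a6c knockout mice 1 and 3 stand apart at the upper right; in the right plot the open circles lie above the other points, with more Krt18 for their Krt8. Axes do not start at 0.

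For each identity gene, the genes with the most similar pattern over the 9 mice were taken by Pearson r among 12818 genes with a mean of at least 5 CPM. These coefficients are the highest of many, share libraries and depth, and are given without a test. For Krt8 they were Usp8 (0.97), Acad9, Kmt5b, G6pdx and D430036J16Rik, and for Krt18 Micu2 (0.96), Ifrd1, Pus7, Slc35a2 and Cept1. Ermn was most like Trappc2 (0.93), Klhl28, Kifap3, Necab1 and Arl6, and Notch2 most like Myo1e (0.96), Lgals3bp, Casc4, Papola and Kidins220. Sox2 was most like Ror1 (0.94), Gid8, Atp1b1, C130071C03Rik and Zkscan8, and Hes1 most like Smim26 (0.94), Dalrd3, Cnksr3, Ctns and C130071C03Rik. C130071C03Rik was the only gene on 2 of these 6 lists, those of Sox2 and Hes1.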

How the data were processed

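Main olfactory epithelium of 9 mice was homogenised and polyadenylated RNA made into directional libraries. Per the labels and the study's methods, the authors aligned the reads with STAR 2.6.1 to mm10, estimated counts per gene with RSEM 1.3.1 on GENCODE annotation, and deposited expected counts, not normalized, for 55291 genes. R 4.0.0 and DESeq2 1.30.1 are also named in the submitters' processing notes. RSEM shares reads among similar genes, so near-identical copies can exchange counts.

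After rounding the expected counts, 23225 genes whose sum across mice reached 10 entered the fit, and edgeR 4.0.16 in R 4.3.3 was used (TMM, quasi-likelihood test, one model of 3 genotypes, Benjamini-Hochberg over all genes). Intervals are 95% and p-values measure the spread between 3 mice a group. With 3 against 3, an exact permutation test of a single gene cannot go below 0.1, so none was used. Totals were 13954591 to 21987174 per mouse. The lowest count of an identity gene in a mouse was 284 (Hes1). Correlations used log2(CPM + 1) and exact permutation (scipy 1.17.1). Copies were found by BLAST 2.17.0 (at least 90% identity over 300 bases); 99.6% of genes matched GENCODE M21, used for positions and lengths. Promoter windows are from RefSeq.

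The code of the fit was run on simulated counts whose planted changes were larger than any difference of the identity genes. That run does not show how well differences of their size are detected. Genes were named by rule: all 6 identity genes, the most abundant gene and the smallest p per pathway list and comparison, every called gene, the most abundant marker or the summed level of each cell type list, and the 5 genes most like each member. Hey2, Cldn4, Fezf1 and Tmprss2 fall under that rule. Hey1, the genes set beside it and single secretory genes were named outside it. The members and lists were chosen with earlier results of these data known. Alternatives were other scalings, filters, samples, a replicate block, DESeq2 1.42.0, covariates (secretory genes, Xist), a threshold of 0.01, each mouse left out, and, chosen after seeing the data, both secretory-rich libraries left out. Replicate numbers were checked for pairing, which the check could not settle because the secretory-rich libraries carry different numbers.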

Additional observations from a re-analysis of the deposited data

Results flagged for a closer look

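Coch, the microvillous list gene read beside the 6 identity genes, differed between the 2 knockouts: its level was 463 ± 33.0 CPM in Ms4a cluster and 286 ± 15.6 CPM in Ms4a6c knockouts (SD, n = 3 each). The test of that difference in the shared edgeR fit gave 0.69 on the log2 scale (SE 0.08, adjusted p = 0.00367), and the difference missed the threshold in 1 of 19 alternatives, plain library sizes (0.53, adjusted p = 0.960). The Ms4a cluster knockouts did not share the lower level of the Ms4a6c knockouts against wild-type mice. None of the 6 identity genes passed the adjusted threshold in the comparison of the knockouts.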

How the results depend on the processing

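With 3 mice a group the fit could miss small changes, and the identity genes' differences were all under 0.5 on the log2 scale in the main fit. Of 348 fits of the 6 genes under alternatives, 320 kept the direction and the side of the threshold, 4 passed it (Ermn in 3, Notch2 in 1, all in Ms4a6c knockouts against wild-type mice), and 24 turned sign, at sizes up to 0.18 and with no adjusted p under 0.05; the cause was not tested.

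The identity genes called in Ms4a6c knockouts against wild-type mice were 2 with DESeq2, 1 without the secretory-rich libraries, and 0 to 1 with a mouse left out. Genes of all kinds called in Ms4a cluster knockouts against wild-type mice were 6 in the main fit, 2 with the replicate block, 18 with DESeq2, 3 at an adjusted p under 0.01, and 3 to 7 with a mouse left out. In Ms4a6c knockouts against wild-type mice they were 101, then 182 without a filter, 345 with DESeq2, 58 at 0.01, 350 without the secretory-rich libraries, and 59 to 159 with a mouse left out (159 without Ms4a cluster knockout 2). Between the knockouts they were 103, then 58 with plain library sizes, 155 without a filter, 271 with DESeq2, 60 at 0.01, and 66 to 121 with a mouse left out. Plain library sizes moved the median over all genes to 0.18 in Ms4a6c knockouts against wild-type mice and to -0.17 between the knockouts.

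Pathway genes called in Ms4a6c knockouts against wild-type mice went from 0 to 5 with DESeq2, 4 without the secretory-rich libraries and 0 to 1 with a mouse left out. Between the knockouts they went to 4 with DESeq2 and 1 without the secretory-rich libraries. Cell type markers called in Ms4a6c knockouts against wild-type mice, 1 in the main fit, were 0 with plain library sizes, 0 with the replicate block, 3 with DESeq2, 6 without the secretory-rich libraries, 0 at 0.01, and 0 to 2 with a mouse left out. Between the knockouts they were 0 with plain library sizes. The correlation of Krt8 and Krt18 was 0.99 with plain library sizes and -0.29 to 0.61 with a mouse left out.

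Against wild-type mice, Ms4a cluster knockouts turned sign for Krt8 without the secretory-rich libraries (0.0267) and with a mouse left out (-0.0514 to 0.00919), for Krt18 with the secretory covariate (-0.00601) and with a mouse left out (-0.0469 to 0.0634), for Sox2 with DESeq2 size factors (-0.00264), DESeq2 (-0.00165), the secretory covariate (-7.65e-05) and a mouse left out (-0.0375 to 0.0518), and for Hes1 with a mouse left out (-0.0355 to 0.117). Ms4a6c knockouts did so for Krt18 with DESeq2 size factors (-0.000432), the Xist covariate (-0.00166) and a mouse left out (-0.0482 to 0.0621). Between the knockouts Krt18 did so with plain library sizes (-0.18), the secretory covariate (-0.0355), without the secretory-rich libraries (-0.0358) and with a mouse left out (-0.0337 to 0.0256), and with plain library sizes Ermn (-0.0939) and Notch2 (-0.00745, where the main value was 0.17 with an interval of 0.02 to 0.31).

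The mean correlation of the deviations of same-numbered mice from their group means was -0.39, -0.03 and 0.02 in the 3 comparisons (16537 genes). In Ms4a cluster knockouts against wild-type mice, the secretory-rich libraries carry different numbers, and their deviations correlated at 0.56. Whether mice of the same number share a litter or batch could therefore not be settled by this check. The replicate block changed no call among the 6 identity genes.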

Other observations

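Of the markers of other cell types, 6 passed the adjusted threshold in Ms4a6c knockouts against wild-type mice once the secretory-rich libraries were left out, a choice made after seeing the data. Of all 22710 genes in that fit, 350 passed, and the wild-type group then held mice 2 and 3 alone. Coch fell by 0.65 on the log2 scale (edgeR adjusted p = 0.00135). Dcx, a microtubule protein of immature neurons, fell by 0.41 (0.00410), Neurod1, a factor of globose basal cells, by 0.56 (0.0364), and Cd68, a macrophage gene, by 0.62 (0.0484). Apoe, a lipid carrier on the glial list, rose by 0.37 (0.0238), and Aqp5, a water channel of Bowman's glands, by 0.30 (0.0399). In the same fit Cyp2g1, a cytochrome P450 of sustentacular cells, rose by 0.31 (0.0214) and Tmprss2 by 0.31 (0.0472), so that with Cldn4 and Fezf1 there were 4 pathway genes called. Ermn was the only identity gene called there.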
